A study of Homo sapiens with 12 samples.

Results

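The inflammatory cytokine and NF-kB feedback genes IL6, IL11, IL1A, IL1B, LIF, PTX3, NFKBIA, TNFAIP3, BIRC3 and ICAM1 were followed in RCC4 cells after YAP silencing and erastin treatment. The genes were chosen by name, with earlier results of these data known. Every probe set that the platform annotation assigns to exactly 1 of them was taken. That gave 15 probe sets of 9 genes, out of 22215 probe sets without the array controls. No probe set was matched to BIRC3, which was not analysed here. IL11, IL1A, IL1B and TNFAIP3 had 2 probe sets each, ICAM1 had 3, and the other 4 measured genes had 1.

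RCC4 is an established human line of clear cell renal carcinoma without functional VHL, the ubiquitin ligase subunit that marks hypoxia-inducible factors for degradation. The cells received siRNA against YAP (siYAP), a co-activator that drives TEAD-bound genes, or a non-targeting siRNA (siNT), for 2 days, and then 1 µM erastin or DMSO, the solvent, for 7 hours. Erastin inhibits system xc-, the cystine importer. The groups were siYAP with erastin, siYAP with DMSO, siNT with erastin and siNT with DMSO, with 3 single-channel arrays each that the submitters call biological triplicates. All 4 groups come from the same line and carry an siRNA, and how many siRNA sequences were used is not given in the sources used here. How separately the triplicates were cultured is also not given, so p-values speak only to the spread among these arrays.

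NF-kB is held in the cytoplasm by inhibitors such as IkBα, the product of NFKBIA, and is freed when the IkB kinase complex marks the inhibitor for destruction. Freed NF-kB switches on cytokines such as IL6 and also its own brakes, IkBα and the ubiquitin-editing enzyme A20 (TNFAIP3), which close a negative feedback loop. IL-6, IL-11 and LIF all signal through the shared receptor subunit gp130, while IL-1α and IL-1β act through the IL-1 receptor and are themselves strong activators of NF-kB. Pentraxin 3 (PTX3) is a secreted pattern recognition protein that IL-1 and TNF induce in many cell types, and ICAM-1 is the endothelial and epithelial ligand of leukocyte integrins. Renal carcinoma cells are known to secrete IL-6.

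The promoters of the genes that the results turn on are shown because NF-kB reads a short DNA element, the kB motif, close to the start of many of its targets. Each sequence is the 250 bases before the RefSeq transcription start (GRCh38.p14), written 5′ to 3′ on the gene's own strand, with kB and AP-1 matches in capitals.
PTX3 promoter, chr3:157436600-157436849, plus strand: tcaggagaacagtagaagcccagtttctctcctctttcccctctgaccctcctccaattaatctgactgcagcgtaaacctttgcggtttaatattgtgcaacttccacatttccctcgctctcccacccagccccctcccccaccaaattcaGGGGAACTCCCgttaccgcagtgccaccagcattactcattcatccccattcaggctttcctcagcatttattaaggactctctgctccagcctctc
IL6 promoter, chr7:22726950-22727199, plus strand: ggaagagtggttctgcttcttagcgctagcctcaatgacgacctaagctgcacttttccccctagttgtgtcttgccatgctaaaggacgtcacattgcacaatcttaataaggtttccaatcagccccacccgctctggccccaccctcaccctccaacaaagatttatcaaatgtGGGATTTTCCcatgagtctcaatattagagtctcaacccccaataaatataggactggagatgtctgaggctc
NFKBIA promoter, chr14:35404750-35404999, minus strand: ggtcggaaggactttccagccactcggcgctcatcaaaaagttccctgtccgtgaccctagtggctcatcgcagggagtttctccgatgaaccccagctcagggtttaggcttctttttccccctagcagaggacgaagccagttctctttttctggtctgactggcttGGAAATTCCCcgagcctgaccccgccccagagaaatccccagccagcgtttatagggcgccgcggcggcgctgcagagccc
TNFAIP3 promoter, chr6:137867009-137867258, plus strand: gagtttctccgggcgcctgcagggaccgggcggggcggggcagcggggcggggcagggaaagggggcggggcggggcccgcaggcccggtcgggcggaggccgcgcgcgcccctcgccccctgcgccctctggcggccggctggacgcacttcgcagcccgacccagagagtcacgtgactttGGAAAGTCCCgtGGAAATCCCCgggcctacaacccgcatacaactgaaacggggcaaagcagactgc
IL11 promoter, chr19:55370464-55370713, minus strand: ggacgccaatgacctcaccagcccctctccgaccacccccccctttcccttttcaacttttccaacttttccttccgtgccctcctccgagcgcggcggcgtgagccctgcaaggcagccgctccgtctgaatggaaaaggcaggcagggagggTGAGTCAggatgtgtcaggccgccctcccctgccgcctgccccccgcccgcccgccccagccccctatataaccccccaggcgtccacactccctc
The kB motif was searched as its decameric consensus, the AP-1 motif as TGANTCA and the TEAD motif as GGAATG, each on both strands. Of the 8 measured genes with a promoter in the table (LIF had no entry), 4 held a kB match, namely PTX3, IL6, NFKBIA and TNFAIP3. Among all 35116 promoters of this length 9.96% held one. The members were chosen as cytokine and NF-kB feedback genes, so a larger share among them is no test of enrichment. TNFAIP3 had 2 separate matches, the first starting 67 bases and the second 55 bases before the start, and PTX3 had 2 that overlap, beginning at 97 and 96 bases. The single matches of IL6 and NFKBIA began 73 and 81 bases before the start. An AP-1 match, found in 6.57% of promoters, stood in IL11 (96 bases before the start) and at both listed starts of IL1A. No measured member held the TEAD letters, which 11.9% of promoters did. No kB or AP-1 match was found in this window for IL1B or ICAM1. The ICAM1 window does hold tggaaattcc, which departs from the kB consensus GGGRNNYYCC only at its first letter. A match is a run of letters, not evidence of binding, and the lack of a match is not evidence that no site is present.

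**Figure D1:**
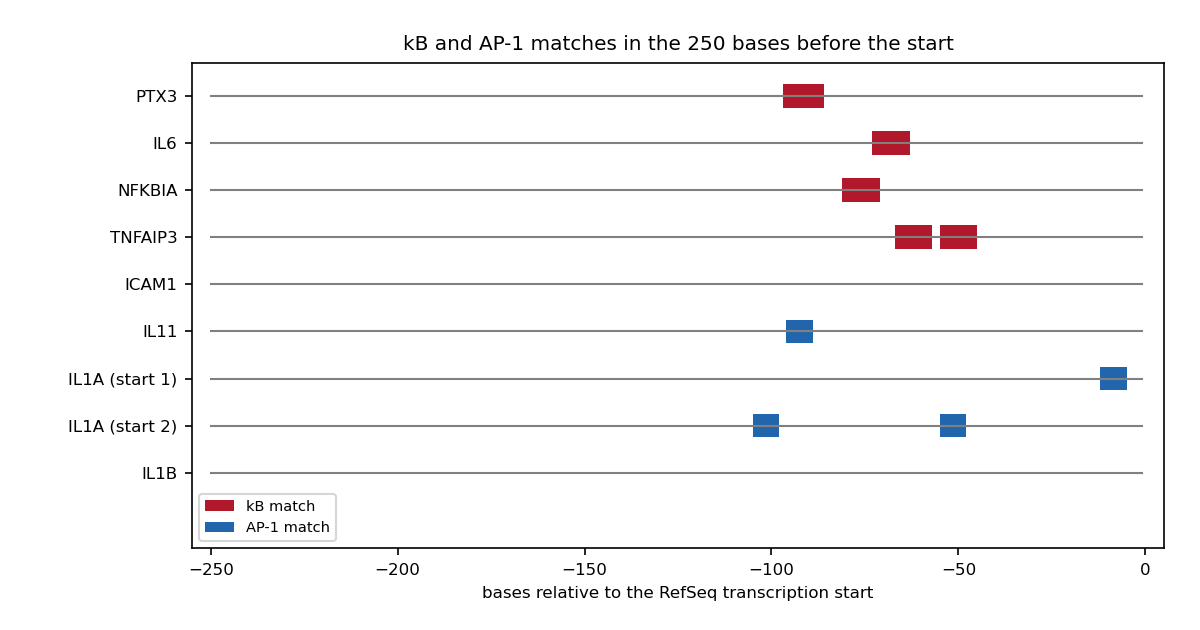
Matches to the kB consensus (red) and to the AP-1 motif (blue) in the 250 bases before the RefSeq start of each measured member with a promoter entry, with position in bases relative to the start on the x axis. PTX3, IL6, NFKBIA and TNFAIP3 each have kB matches within 100 bases of the start, and IL11 and IL1A have AP-1 matches.

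Values are RMA levels on the log2 scale, so a difference of 1 is a 2-fold change, and a probe set was called at a limma adjusted p under 0.05 over all 22215 probe sets. YAP1 itself stood at 4.68, 6.21 and 4.90 in siYAP cells with erastin, against 8.47, 8.52 and 8.65 in siNT cells with erastin. In DMSO it stood at 4.18, 4.88 and 4.81 in siYAP cells, against 8.55, 8.59 and 8.47 in siNT cells, so each array bore out its siRNA label. Array medians lay between 6.48 and 6.52, and arrays of a group correlated at 0.9956 or more. None of 8 measured renal carcinoma and tubule markers lay in the dimmest 30% of probe sets. Among 8 immune markers 4 lay there (PTPRC, CD14, CD163 and LYZ), as did 5 of 7 endothelial markers and 3 of 7 fibroblast and pericyte markers. In bulk RNA fewer cells of a type and less RNA per cell cannot be told apart.

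After YAP silencing PTX3 rose most among the members, and IL6, NFKBIA and TNFAIP3 rose by less. IL11 fell on the brighter of its probe sets, while the other was not called. ICAM1 had a single call, under erastin, and LIF, IL1A and IL1B were not called. PTX3 was 4.34-fold higher in DMSO and 4.43-fold higher under erastin. IL6 was 1.74-fold and 1.91-fold higher, NFKBIA 1.33-fold and 1.57-fold, and the brighter TNFAIP3 probe set 1.2-fold and 1.41-fold. Of the 15 probe sets 5 were called in DMSO, where 27.4% of all probe sets were. Of these 4 rose and 1 fell, against 14.4% and 12.9% of all. Under erastin 7 were called, against 28.9% of all, with 6 higher and 1 lower, against 16.0% and 12.9%. The siYAP and siNT arrays did not overlap for 7 of the 15 in DMSO, as for 40.8% of all probe sets, and for 8 of the 15 under erastin, as for 40.1%. In DMSO both counts lie close to the background share. The members were chosen with earlier results of these data known, so their counts beside these shares are descriptive and test nothing. The median difference of the 15 was 0.06 in DMSO and 0.12 under erastin, against 0.02 and 0.00 over all probe sets. No array was shared between the group means of the DMSO and the erastin comparison of siYAP with siNT. Both comparisons took their spread from all 12 arrays, however, so their p-values are not independent.

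IL6 (probe set 205207_at) encodes a cytokine of fever, the acute phase response and cell survival. In DMSO its level was 9.74, 9.88 and 10.10 in siYAP cells, against 9.01, 9.13 and 9.19 in siNT cells. Under erastin it was 9.88, 9.95 and 9.82 in siYAP cells, against 8.99, 8.95 and 8.92 in siNT cells. All 6 siYAP arrays lay above all 6 siNT arrays. The difference was 0.80 in DMSO (95% interval 0.61 to 0.98, adjusted p = 1.33e-05) and 0.93 under erastin (0.75 to 1.11, adjusted p = 3.83e-06). In order of level, siYAP with DMSO (9.91 ± 0.18, SD, n = 3) and siYAP with erastin (9.88 ± 0.07) did not differ beyond their spread. Below them siNT with DMSO (9.11 ± 0.09) and siNT with erastin (8.95 ± 0.03) had arrays that did not overlap, but the difference of -0.16 was not called (adjusted p = 0.658).

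IL11, a cytokine of the same gp130 family that is linked to fibrosis and platelet production, went the other way on the brighter of its probe sets, 206924_at. In DMSO this probe set read 6.49, 6.24 and 6.50 in siYAP cells, against 7.24, 7.47 and 7.34 in siNT cells. Under erastin it read 6.71, 6.59 and 6.50 in siYAP cells, against 7.32, 7.28 and 7.39 in siNT cells. Every siYAP array lay below every siNT array, and the difference was -0.94 in DMSO (-1.13 to -0.75, adjusted p = 4.28e-06) and -0.73 under erastin (-0.91 to -0.54, adjusted p = 3.78e-05). The other IL11 probe set, 206926_s_at, gave -0.15 (-0.35 to 0.06, adjusted p = 0.321) in DMSO and -0.24 (-0.45 to -0.03, adjusted p = 0.0847) under erastin, so the probe sets differ in size. The second of these was called, at adjusted p = 0.0222, when siNT with erastin replicate 3 was left out. It was also called with array weights (adjusted p = 0.0235). On the mean of both probe sets IL11 was lower by -0.54 in DMSO and -0.48 under erastin, both called (adjusted p = 4.96e-05 and 1.32e-04).

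LIF (205266_at), a further gp130 cytokine, known for holding mouse embryonic stem cells in the pluripotent state, was not called in any comparison. Its group means were 9.27 ± 0.05 in siYAP with erastin, 9.17 ± 0.03 in siYAP with DMSO, 9.17 ± 0.01 in siNT with erastin and 9.21 ± 0.05 in siNT with DMSO (SD, n = 3 each). Under erastin the siYAP arrays (9.30, 9.28 and 9.21) all lay above the siNT arrays (9.17, 9.17 and 9.15). Silencing differences were -0.04 in DMSO (-0.15 to 0.08, adjusted p = 0.673) and 0.10 under erastin (-0.02 to 0.21, adjusted p = 0.203). These intervals leave out the changes seen for IL6 and the brighter IL11 probe set.

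The IL-1 genes were low. Both IL1A probe sets lay in the dimmest 30%, with array levels of 3.65 to 4.11 on 210118_s_at and of 3.42 to 4.07 on 208200_at, so a change of IL1A would be compressed toward 0 here. Both IL1B probe sets lay just above that limit of 4.9, at group means of 5.49 to 5.57 on 205067_at and 5.08 to 5.22 on 39402_at. None of the 4 was called in any of the 5 comparisons. The differences after silencing ran from -0.15 to 0.14 in DMSO and from -0.17 to 0.12 under erastin. For IL1A the bound farthest from 0 was -0.43, in DMSO, and for IL1B it was 0.29, also in DMSO, so changes of that size were not resolved. On the dimmer IL1B probe set the siYAP arrays in DMSO (5.24, 5.20 and 5.21) all lay above the siNT arrays (5.07, 5.06 and 5.12), at a difference of 0.14 (adjusted p = 0.199).

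PTX3 (206157_at) had the largest difference among the members in both comparisons. In DMSO its level was 9.54, 9.35 and 9.74 in siYAP cells, against 7.45, 7.48 and 7.35 in siNT cells. Under erastin it was 9.51, 9.51 and 9.59 in siYAP cells, against 7.41, 7.15 and 7.62 in siNT cells. The lowest siYAP array stood well above the highest siNT array. The difference was 2.12 in DMSO (1.87 to 2.37, adjusted p = 8.58e-08) and 2.15 under erastin (1.90 to 2.40, adjusted p = 8.76e-08). The pair of siYAP groups did not differ beyond their spread, nor did the pair of siNT groups, with erastin differences of -0.01 (adjusted p = 0.987) and -0.04 (adjusted p = 0.966).

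**Figure D2:**
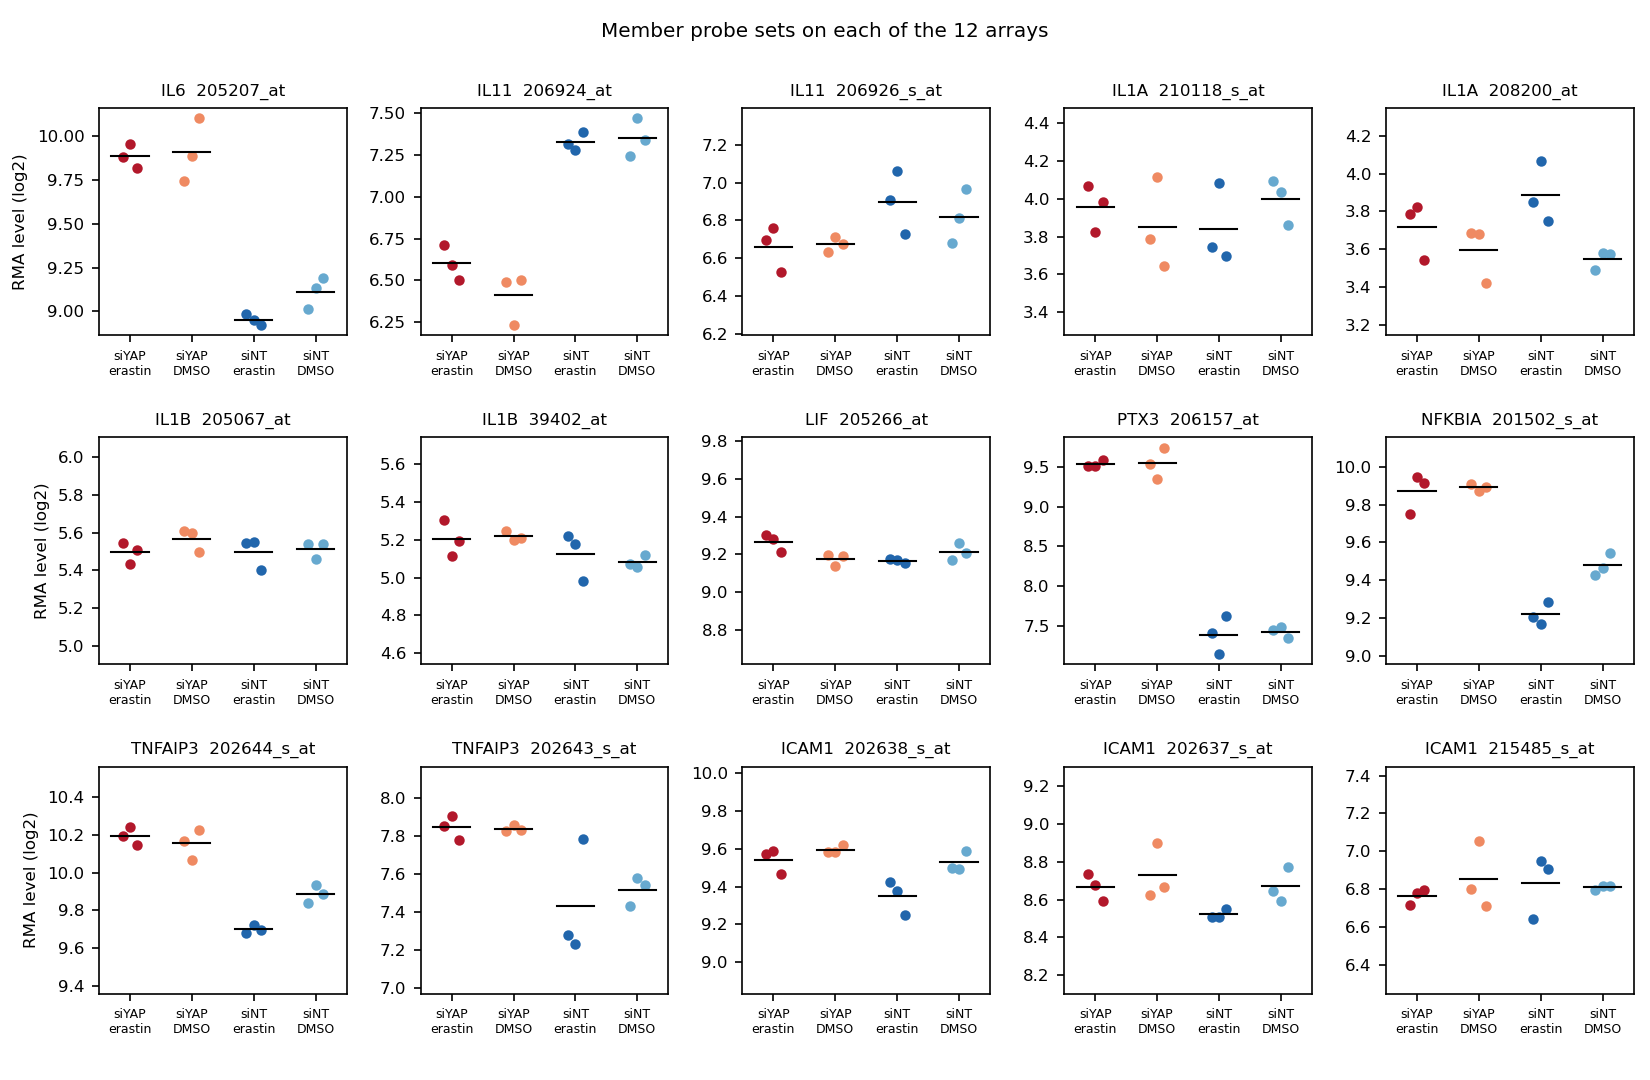
RMA level (log2, y axis) of each member probe set on each array, with siYAP groups left of siNT groups and erastin left of DMSO; points are the 3 arrays of a group and lines are group means. PTX3 and IL6 are higher and the brighter IL11 probe set is lower on all siYAP arrays. LIF, IL1A and IL1B overlap between siYAP and siNT when the treatments are pooled, though not for LIF under erastin or the dimmer IL1B probe set in DMSO.

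The feedback inhibitors rose less. NFKBIA (201502_s_at), the gene of IkBα, read 9.91, 9.87 and 9.89 in siYAP cells with DMSO, against 9.43, 9.46 and 9.54 in siNT cells with DMSO. With erastin it read 9.75, 9.94 and 9.91 in siYAP cells, against 9.21, 9.17 and 9.28 in siNT cells. The 6 siYAP arrays again lay above the 6 siNT arrays. The difference was 0.41 in DMSO (0.27 to 0.55, adjusted p = 3.35e-04) and 0.65 under erastin (0.51 to 0.79, adjusted p = 7.81e-06).

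TNFAIP3 encodes A20, which trims and attaches ubiquitin on signalling proteins upstream of the IkB kinases. Its brighter probe set, 202644_s_at, read 10.17, 10.07 and 10.22 in siYAP cells with DMSO, against 9.84, 9.93 and 9.89 in siNT cells with DMSO. With erastin it read 10.19, 10.24 and 10.15 in siYAP cells, against 9.68, 9.72 and 9.70 in siNT cells. The siYAP and siNT arrays did not overlap, and the difference was 0.27 in DMSO (0.14 to 0.39, adjusted p = 0.00351) and 0.49 under erastin (0.37 to 0.62, adjusted p = 3.32e-05). The dimmer probe set, 202643_s_at, gave 0.32 in DMSO (adjusted p = 0.058), where its arrays did not overlap, and 0.42 under erastin (adjusted p = 0.0168). There siNT with erastin replicate 3, at 7.78, stood apart from replicates 1 and 2, at 7.28 and 7.23, and overlapped the siYAP arrays (7.85, 7.91 and 7.78). Without that array the DMSO difference was called (adjusted p = 0.00108), as it was without siNT with erastin replicate 2 (adjusted p = 0.0374). Array weights (adjusted p = 0.00506), quantile normalization (0.0243) and only the 6 arrays compared (0.00529) also gave a call in DMSO. So did a trended and robust variance (0.0287), each array centred on its median (0.0398) and removal of the dimmest 30% (0.041). It stayed uncalled in DMSO in 11 of 19 settings. The erastin call was lost without siNT with erastin replicate 1 (adjusted p = 0.0737) or 2 (adjusted p = 0.0681), or without siYAP with erastin replicate 2 (adjusted p = 0.0593). It was also lost with only the 6 arrays compared (adjusted p = 0.0741).

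ICAM1, an adhesion gene that NF-kB induces, had a single call, of its brightest probe set, 202638_s_at, after silencing under erastin. There it read 9.57, 9.59 and 9.46 in siYAP cells, against 9.42, 9.38 and 9.25 in siNT cells, a difference of 0.19 (0.06 to 0.33, adjusted p = 0.0355). The groups did not overlap, but the call was lost without siNT with erastin replicate 2 (adjusted p = 0.0532) or 3 (adjusted p = 0.114), or without siYAP with erastin replicate 1 (adjusted p = 0.111) or 2 (adjusted p = 0.122). It was also lost with array weights (adjusted p = 0.0641), with each array centred on its median (adjusted p = 0.0623) and with only the 6 arrays compared (adjusted p = 0.0984). In DMSO this probe set differed by 0.07 (-0.07 to 0.20, adjusted p = 0.515), and the interaction between both silencing differences was 0.13 (adjusted p = 0.684). Under erastin the other ICAM1 probe sets gave 0.15 (202637_s_at, adjusted p = 0.206) and -0.07 (215485_s_at, adjusted p = 0.68), and in DMSO 0.06 and 0.05.

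**Figure D3:**
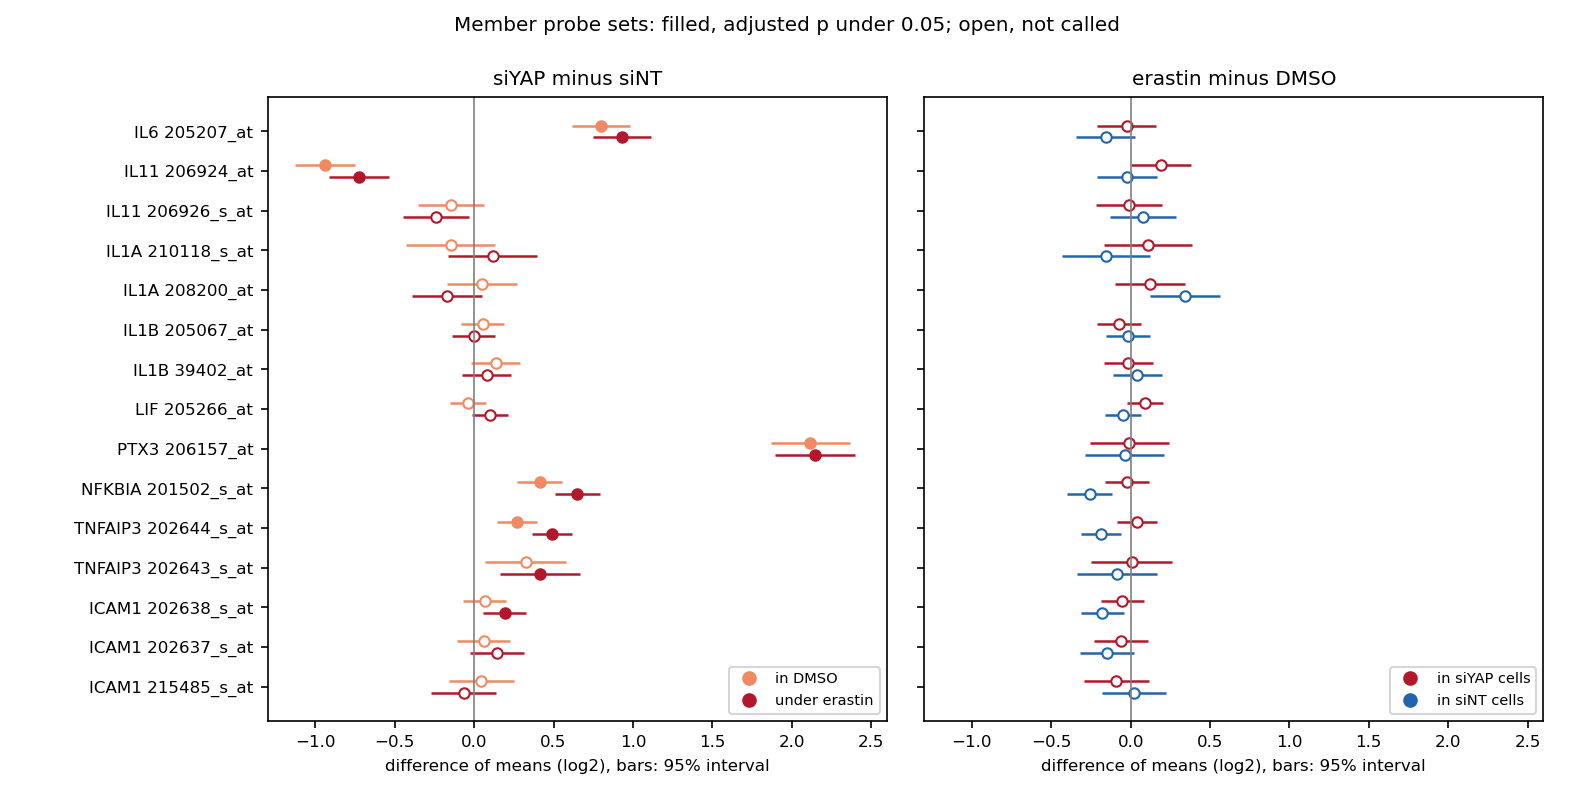
Difference of group means (log2, x axis) with its 95% interval for each member probe set, for siYAP minus siNT on the left and erastin minus DMSO on the right; filled points have an adjusted p under 0.05. PTX3 lies near 2.1 in both silencing comparisons, the brighter IL11 probe set is negative in both, and no erastin difference is filled.

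For erastin at this dose and time few probe sets were called, and no member was among them. The number of calls moved with the setting, so it does not show how many transcripts changed. In siYAP cells 0 of 15 member probe sets passed in limma, against 0.171% of all probe sets, and 1 had an unadjusted p under 0.05, where 9.91% of all probe sets did. The arrays did not overlap for 2 of the 15, as for 21.0% of all probe sets. The probe set with that p was the brighter one of IL11, higher with erastin by 0.19 (adjusted p = 0.5). In siNT cells 0 of 15 passed, against 0.297% of all probe sets, and 4 had an unadjusted p under 0.05, where 8.76% of all did. The arrays did not overlap for 6 of the 15, against 12.4% of all probe sets. NFKBIA (-0.26, adjusted p = 0.165), the brighter TNFAIP3 probe set (-0.18, adjusted p = 0.357) and the brightest ICAM1 probe set (-0.18, adjusted p = 0.424) had the erastin arrays below every DMSO array. A dim IL1A probe set had them above (0.34, adjusted p = 0.308). With a trended and robust variance model NFKBIA was called, at adjusted p = 0.0474.

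The interaction asks whether the erastin response differed between siYAP and siNT cells, which is the same number as the difference between both silencing effects. For NFKBIA it was 0.24 (0.04 to 0.43, adjusted p = 0.522) and for the brighter TNFAIP3 probe set 0.22 (0.05 to 0.40, adjusted p = 0.517). These 2 of the 15 had an unadjusted p under 0.05, where 9.03% of all probe sets did. For PTX3 it was 0.03 (-0.32 to 0.38, adjusted p = 0.972), for IL6 0.13 (adjusted p = 0.762), for the brighter IL11 probe set 0.21 (adjusted p = 0.623) and for LIF 0.14 (adjusted p = 0.606). In limma 0 members and 0 of all probe sets passed, so the larger silencing differences of NFKBIA and TNFAIP3 under erastin are not shown to differ from those in DMSO. The log2 excess of the 3′ over the 5′ actin control on the array, which grows as RNA degrades, was 3.54 ± 0.179 in siYAP with erastin, against 2.59 ± 0.955 in siYAP with DMSO, 2.26 ± 0.691 in siNT with erastin and 2.68 ± 0.282 in siNT with DMSO (SD, n = 3 each). The siYAP with erastin arrays (3.35 to 3.71) all lay above the siNT with erastin arrays (1.49 to 2.82). They also lay above those of siYAP with DMSO (1.49 to 3.14) and siNT with DMSO (2.40 to 2.97). The part of this excess in the erastin results, the silencing differences under erastin among them, was not tested.

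Among the genes of the NF-kB subunits and of the kinases and adaptors upstream of them, 6 of 24 measured rose and 3 fell after silencing in DMSO, against 17.0% and 14.6% of all 11963 genes by the brightest probe set. Under erastin 11 rose and 2 fell, against 19.0% and 14.0%. TRAF1, an adaptor of TNF receptors, averaged 7.56 ± 0.11 in DMSO-treated siYAP cells and 6.78 ± 0.05 in DMSO-treated siNT cells, a rise of 0.78, and it rose by 0.88 under erastin. RIPK2, the kinase of NOD receptor signalling, rose by 0.55 and 0.28, and CHUK, the IKKα subunit of the IkB kinase complex, by 0.47 and 0.31. TAB2, which links ubiquitin chains to the kinase TAK1, fell by 0.64 and 0.55. The subunit genes RELA (0.17) and RELB (0.22) were called under erastin but not in DMSO (0.14 and 0.05), and REL, NFKB1 and NFKB2 were not called in either. Their interactions, 0.03 (adjusted p = 0.934) for RELA and 0.17 (adjusted p = 0.62) for RELB, were not called. The list's median was 0.08 in DMSO and 0.16 under erastin. This list and the other pathway lists were also chosen with earlier results known, so their counts are descriptive. The erastin count of 13 called genes was 8 without siYAP with erastin replicate 1 and 7 without replicate 3.

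Of 18 other NF-kB inhibitors and feedback genes 6 rose and 2 fell in DMSO, and 8 rose and 2 fell under erastin, with medians of 0.07 and 0.13. Over all genes 17.0% rose and 14.6% fell in DMSO, and 19.0% and 14.0% under erastin. CYLD, a deubiquitinase that restrains NF-kB, rose by 0.36 in DMSO and 0.38 under erastin, and TAX1BP1, a partner of A20, by 0.29 and 0.28. IER3, an early response gene that NF-kB induces, rose by 0.24 in DMSO and 0.17 under erastin (adjusted p = 0.0336 under erastin). TNIP2, which binds A20, rose by 0.29 under erastin and was not called in DMSO (0.11, adjusted p = 0.131). TNFAIP1, which despite its name is an adaptor of a cullin ubiquitin ligase, fell by 0.80 and 0.85. GADD45B fell by 0.54 under erastin, on an average of 9.97 ± 0.04 in siYAP cells and 10.51 ± 0.05 in siNT cells. In DMSO it fell by 0.20 (adjusted p = 0.0204). The DMSO count of 8 was 5 without any 1 of the siNT with DMSO replicates and 4 without siYAP with DMSO replicate 1, and the erastin count of 10 was 6 without siYAP with erastin replicate 1 or 2.

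In the interleukin-1 receptor system 7 of 22 genes rose and 1 fell in DMSO, and 6 rose and 1 fell under erastin, with 9 of the 22 dim and medians of 0.12 and 0.08. The shares over all genes were 17.0% and 14.6% in DMSO, and 19.0% and 14.0% under erastin. The list was led by IL18, an IL-1 family cytokine made by epithelia. IL18 averaged 9.91 ± 0.13 in DMSO-treated siYAP cells and 8.23 ± 0.04 in DMSO-treated siNT cells, a rise of 1.68 (adjusted p = 2.73e-08), and it rose by 1.45 under erastin (adjusted p = 7.07e-08). MYD88, the adaptor of IL-1 and Toll-like receptors, rose by 0.60 and 0.53, and SIGIRR, an inhibitory member of the receptor family, by 0.75 and 0.75. IL18R1 fell by 0.97 and 0.72 on a dim probe set, so its size is uncertain.

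Among gp130 cytokine receptors and their signalling genes 7 of 25 rose and 2 fell in DMSO, and 8 rose and 3 fell under erastin, with medians of 0.05 and -0.02. Over all genes the shares were 17.0% and 14.6% in DMSO, and 19.0% and 14.0% under erastin. EBI3, a subunit shared by IL-27 and IL-35, rose by 0.87 and 0.94, and the transcriptional repressor BCL6 by 0.82 and 0.88. The other BCL6 probe set was called in the same direction in DMSO but not under erastin. IL11RA, the receptor subunit specific for IL-11, averaged 5.56 ± 0.03 in DMSO-treated siYAP cells and 5.09 ± 0.10 in DMSO-treated siNT cells, a rise of 0.47 (adjusted p = 9.90e-04), and it rose by 0.42 under erastin (adjusted p = 0.00196). IL6R, the receptor subunit specific for IL-6, rose by 0.42 under erastin (adjusted p = 0.00486) and was not called in DMSO (0.17, adjusted p = 0.237). The other IL6R probe set was not called under erastin. SOCS1, an inhibitor of JAK kinases, rose by 0.41 in DMSO (adjusted p = 0.00167), while none of its other 3 probe sets was called there. Under erastin SOCS1 rose by 0.34 (adjusted p = 0.00587). OSMR, the oncostatin M receptor that pairs with gp130, averaged 6.35 ± 0.14 in siYAP cells with erastin and 7.17 ± 0.55 in siNT cells with erastin, and fell by 0.83 (adjusted p = 0.0493). That call was kept in 8 of 20 settings. It was lost without siNT with erastin replicate 2 or 3, any siYAP with erastin replicate, siNT with DMSO replicate 1 or 2, or siYAP with DMSO replicate 1 or 3 (adjusted p = 0.0524 to 0.18). Without siNT with erastin replicate 3 the difference was -0.51. The other genes that fell, named after their values were seen, were PIAS3 (-0.24) and the phosphatase gene PTPN11 (-0.18) in DMSO, and the kinase gene JAK1 (-0.26) and PTPN11 (-0.22) under erastin. IL6ST, the gene of gp130 itself, differed by 0.36 in DMSO, which was called, and by 0.16 under erastin, which was not. SOCS3, a feedback inhibitor of this pathway, differed by 0.05 and -0.02, neither called. With erastin in siNT cells LTB, the gene of lymphotoxin β, was the only gene of these and the other pathway lists that was called, where 0.435% of all genes were. It averaged 7.09 ± 0.06 with erastin and 7.51 ± 0.11 with DMSO (adjusted p = 0.0433). That call was lost when any siNT array, any siYAP with DMSO array, or siYAP with erastin replicate 2 or 3 was left out (adjusted p = 0.0563 to 0.173).

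**Figure D4:**
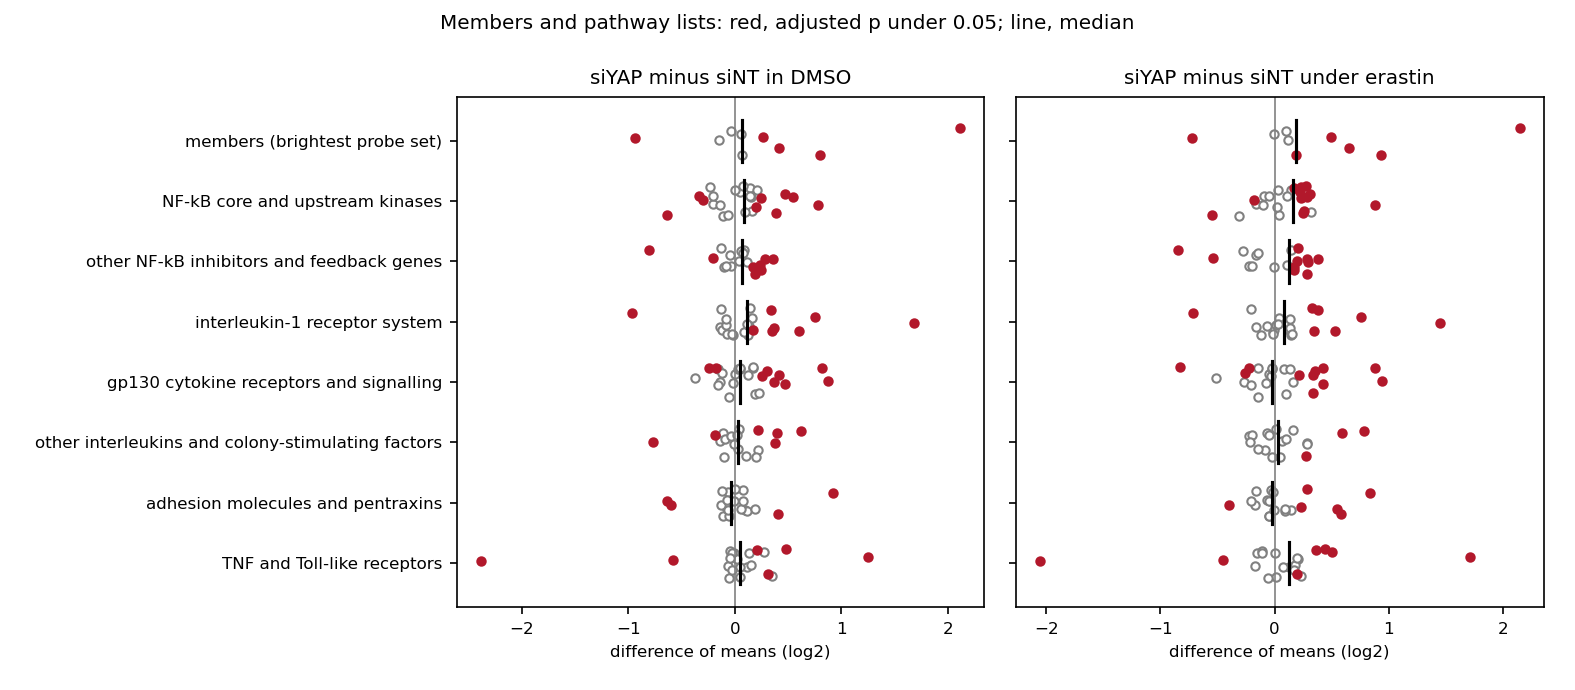
Difference of means (log2, x axis) between siYAP and siNT for the members and 7 lists of pathway genes, by the brightest probe set of each gene, in DMSO on the left and under erastin on the right; red points have an adjusted p under 0.05 and black lines are medians. The medians lie near 0 in both panels, while PTX3 among the members and IL18 in the interleukin-1 receptor system lie far to the right.

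Across the 12 arrays the closest patterns to each called member were sought among all probe sets that carry 1 symbol and are not dim (13782 for IL6), starting from the member's brightest probe set. PTX3 was followed most closely by VPS4B (Pearson's r = 0.9986) and HEATR1 (r = 0.9973), and IL6 by PRDM4 (r = 0.9881) and PTPRR (r = 0.9876). IL11 was followed by TBC1D5 (r = 0.9911) and PRKAB1 (r = 0.9868). NFKBIA was followed by RABIF (r = 0.9813) and MICALL1 (r = 0.9749), and TNFAIP3 by RPP40 (r = 0.9842) and SRPRB (r = 0.984). ICAM1 was followed by IL15RA, a receptor chain for interleukin-15 (r = 0.9612), and MANF (r = 0.9261). The 12 arrays fall into a siYAP and a siNT cluster, so these values mostly describe a shared step between them and carry no test.

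Markers of immune cells, a common source of IL-1 and IL-6, were set beside these results. In DMSO 1 of 8 rose after silencing (CD74) and under erastin 2 of 8 (CD74 and ITGAM), none of them among the dim markers, and none fell. Of all genes 17.0% rose in DMSO and 19.0% under erastin, while 14.6% and 14.0% fell. Their summed log2 level ranged from 40.7 to 41.6 in siYAP with erastin, against 39.3 to 41.0 in siNT with erastin, and from 41.0 to 41.2 in siYAP with DMSO, against 40.0 to 40.9 in siNT with DMSO. The pan-leukocyte marker PTPRC lay in the dimmest 30%. All samples are cultures of the RCC4 line, so these values are read as transcripts of that line and not as a measure of immune cells.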

How the data were processed

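The authors deposited log2 values. The submitters' processing notes name Affymetrix Expression Console and RMA; no version, setting or scan date is given in the sources used here, and no batch was tested. RMA corrects background, quantile-normalizes arrays and summarises probes per probe set, which hides changes of total RNA and compresses dim genes. Arrays, not reads, limit the precision: with 3 per group the median standard error of a silencing difference in DMSO was 0.0845.

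Groups and replicate numbers came from the titles. Of 22277 probe sets 62 were array controls; 19065 had exactly 1 symbol, 1043 several and 2107 none. A RefSeq table matched 19053 of those with 1 symbol and changed 0. limma 3.58.1 (R 4.3.3) fitted a mean per group to all 12 arrays (8 residual and 4.27 prior degrees of freedom). Benjamini-Hochberg adjustment ran over 22215 probe sets within each of 5 comparisons, and all adjusted p-values are limma's. Dim means a mean level of 4.9 or less, the lowest 30%. Pathway genes were taken by their brightest probe set. Named were every member, up to 4 called genes per list and comparison with the largest change, the 2 closest patterns per called member and YAP1. A gene named for 1 comparison could also be called in the other. Genes named for their role beside these were chosen after their values were seen. On simulated data with 200 of 22215 probe sets changed, the fit for silencing in DMSO called 12% at a log2 change of 0.25, 74% at 0.5, 98% at 1 and 100% at 2, and 3.4% of calls were false. In the data 6079 probe sets were called in that comparison, many more than were changed in the simulation. The simulated rates therefore do not describe the real comparison.

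Members and lists were chosen with earlier results of these data known. Alternatives were other scalings, filters, probe set rules, variance models, a replicate block, a 2-fold minimum, the submitters' zero transformation and leaving out each array. The settings for the pathway genes were added after seeing the data. Sequences came from a RefSeq promoter table (GRCh38.p14), searched in Python 3.11.15.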

Additional observations from a re-analysis of the deposited data

How the results depend on the processing

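No called member difference reversed direction under any alternative. Some small differences that were not called changed sign, such as that of ICAM1 probe set 202637_s_at after silencing in DMSO (0.06, alternatives -0.02 to 0.11) and that of 215485_s_at under erastin (-0.07, alternatives -0.16 to 0.05). PTX3, IL6, NFKBIA and the brighter probe sets of IL11 and TNFAIP3 kept their silencing calls under all 20 settings that tested them singly. The count of called member probe sets was 5 in DMSO and 7 under erastin. Leaving out each array gave 5 to 6 in DMSO, 5 to 7 under erastin, and 0 for erastin in siNT cells, for erastin in siYAP cells and for the interaction. With a 2-fold minimum, and with the submitters' zero transformation (every array beyond 1 log2 unit of the control mean), the count was 1 in DMSO and 1 under erastin, in each case PTX3. With a trended and robust variance model it was 1 for erastin in siNT cells, NFKBIA. Requiring 2-fold excludes smaller changes by construction.

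The groups share replicate numbers, but of 18 same-numbered pairs only 3 had deviations that correlated above 0.1 (range -0.425 to 0.167). With so few arrays per group this cannot exclude a shared culture or processing day. Whether same-numbered samples were paired is not given in the sources used here. With the replicate block the counts were 5 in DMSO, 6 under erastin (the brightest ICAM1 probe set was lost, adjusted p = 0.0593) and 0 in the other comparisons. The block cut the count over all probe sets for erastin in siNT cells to 33, against 66 without it.

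That count also moved under other settings, and the cause was not tested. It was 124 without the dimmest 30%, 170 with a trended and robust model, 186 with array weights, 90 with the brightest probe set per gene, 10 with only the 6 arrays compared, 5 at 2-fold, 4 by the zero transformation, and 34 to 50 when an array was left out. For erastin in siYAP cells it was 38, against 88 with the trended model, 70 with array weights, 10 at 2-fold, 10 by the zero transformation, and 19 to 49 when an array was left out. For the interaction it was 0, against 7 with the trended model, 3 with array weights and 1 without siYAP with DMSO replicate 2. For silencing, 2-fold left 495 of 6079 probe sets in DMSO and 495 of 6415 under erastin, and the zero transformation 388 and 341. The zero transformation and the fit of only the arrays compared were not run for the interaction. Of 693 recounts of pathway lists, 44 moved by over 1.5 times. Dim probe sets limit what can be said of IL1A, and array number limits small differences, with no fixed size below which they are missed.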

Other observations

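In the list of TNF and Toll-like receptors a few genes changed strongly after silencing, while no Toll-like receptor gene was called. TNFRSF21, which encodes death receptor 6, averaged 7.93 ± 0.08 in DMSO-treated siYAP cells and 10.31 ± 0.03 in DMSO-treated siNT cells (SD, n = 3 each), so it fell by 2.39, which is 5.23-fold (adjusted p = 1.91e-06). Under erastin it fell by 2.05, with a wider spread in siYAP cells (8.19 ± 0.58) than in siNT cells (10.25 ± 0.02). Its other probe set was called in the same direction in both. LY96, the MD-2 partner of TLR4, rose by 1.25 in DMSO and 1.71 under erastin on a probe set that is dim, so its size is uncertain. TNFRSF10B, a TRAIL receptor, rose by 0.48 in DMSO, TNFRSF11B, the decoy receptor osteoprotegerin, rose by 0.50 under erastin, and TNFRSF11A, the receptor RANK, fell by 0.58 and 0.45. In total 4 of 21 genes rose and 2 fell in DMSO, and 5 rose and 2 fell under erastin, with 8 of the 21 dim and medians of 0.05 and 0.12. Of all genes 17.0% rose and 14.6% fell in DMSO, and 19.0% and 14.0% under erastin.

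Of 18 other interleukins and colony-stimulating factors 9 were dim, with 4 higher and 2 lower in DMSO and 3 higher under erastin, and medians of 0.03 in both. Over all genes 17.0% were higher and 14.6% lower in DMSO, and 19.0% and 14.0% under erastin. IL7, a lymphocyte growth factor, rose by 0.62 in DMSO and 0.78 under erastin. IL13RA2, a decoy receptor for IL-13, rose by 0.39 in DMSO and 0.59 under erastin on a dim probe set, and the DMSO call was lost without any 1 of the DMSO arrays (adjusted p = 0.0547 to 0.113). IL12A, a subunit of IL-12 and IL-35, rose by 0.38 in DMSO, a call lost without siNT with DMSO replicate 1 or 2 or siYAP with DMSO replicate 2 or 3 (adjusted p = 0.0691 to 0.0941). IL32 rose by 0.27 under erastin, a call lost without siYAP with erastin replicate 2 (adjusted p = 0.0783) or siNT with erastin replicate 3 (adjusted p = 0.0619). Lymphotoxin β (LTB) fell by 0.77 in DMSO. The DMSO count of 6 was 2 to 3 without siNT with DMSO replicate 1 or 2 or any 1 of the siYAP with DMSO replicates, and the erastin count of 3 was 5 without siNT with erastin replicate 1. Among adhesion molecules and pentraxins, NPTXR, a neuronal pentraxin receptor, rose by 0.92 and 0.84, CD58 by 0.41 and 0.58, and ITGB2 fell by 0.60 and 0.40. The other NPTXR probe set was called in neither comparison. ITGAM, an integrin chain of myeloid cells, rose by 0.54 under erastin, where its other probe set was not called, and NPTX2 fell by 0.64 in DMSO on a dim probe set. That list of 20 had 2 higher and 2 lower in DMSO, and 5 higher and 1 lower under erastin, with medians of -0.03 and -0.02. The shares over all genes were again 17.0% and 14.6% in DMSO, and 19.0% and 14.0% under erastin. VCAM1, another adhesion gene of NF-kB, chosen after its value was seen, differed by 0.08 in DMSO (adjusted p = 0.358) and -0.03 under erastin (adjusted p = 0.733).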
